A study of Mus musculus with 6 samples.

Results

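The interferon regulatory factor (IRF) family was described in RNA of macrophages sorted from healing skin wounds of young and aged mice. The members were Irf1, Irf2, Irf3, Irf4, Irf5, Irf7, Irf8, Irf9 and Irf2bp2, found by their gene symbol in the deposited table, and 9 of its 15168 genes were members. All 9 had enough counts to be tested, among 11878 genes tested in all. The samples were bulk RNA-sequencing libraries of F4/80+CD64+ macrophages (gated on CD45+CD11b+ cells in the study's methods) from full-thickness wounds on the dorsum of female C57BL/6J wild-type mice, harvested on Day 3 after wounding. There were 3 samples from young mice of 12 weeks and 3 from aged mice of 24 months, named A, B and C within each age after the set letter in their labels. Both ages were wounded under isoflurane with buprenorphine for pain relief, per the study's methods, the labels name no other treatment or allele, and unwounded skin was not analysed here. Whether a sample held cells of 1 mouse or of several was not given in the sources used here, nor which of 2 animal facilities each mouse came from, so p-values measure the spread between these samples. In sorted bulk RNA, fewer cells of a type and less RNA per cell cannot be told apart.

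IRF proteins are transcription factors that share an amino-terminal DNA-binding domain and recognise repeats of GAAA, the core of the interferon-stimulated response element (ISRE). Irf3 and Irf7 drive type I interferon genes after phosphorylation by kinases downstream of nucleic acid and lipopolysaccharide sensors, while Irf5 acts behind the Toll-like receptors on inflammatory cytokine genes. Irf9 binds DNA within the STAT complex ISGF3, Irf1 is induced by interferon gamma and Irf2 competes with it for the same sites, and Irf4 and Irf8 work with partners such as PU.1 in myeloid and lymphoid cells. Irf2bp2 is no IRF but a co-repressor that binds Irf2 and is also known as a restraint on inflammatory macrophages.

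In aged Day 3 wound macrophages, Irf7 fell with a log2 fold change of -1.58, Irf5 and Irf2bp2 rose by log2 fold changes of 0.71 and 0.67, and the other 6 members did not pass the test. A gene passed where its p-value from the quasi-likelihood test of edgeR, adjusted by Benjamini-Hochberg across the 11878 tested genes, was under 0.05. Of the 9 members, 2 passed as higher in aged samples, against 9.73% of all tested genes, and 1 passed as lower, against 7.97%. Every aged sample lay above every young sample in 2 members (19.2% of all tested genes) and below in 1 member (19.0% of all tested genes). With the study's further threshold of a more than 2-fold change, Irf7 was the member that remained, where 4.20% of tested genes were lower and 4.59% higher. With 9 members these counts are near the background shares, and the family is described gene by gene. The median log2 fold change of the 9 members was 0.10, beside -0.02 over all tested genes.

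**Figure D1:**
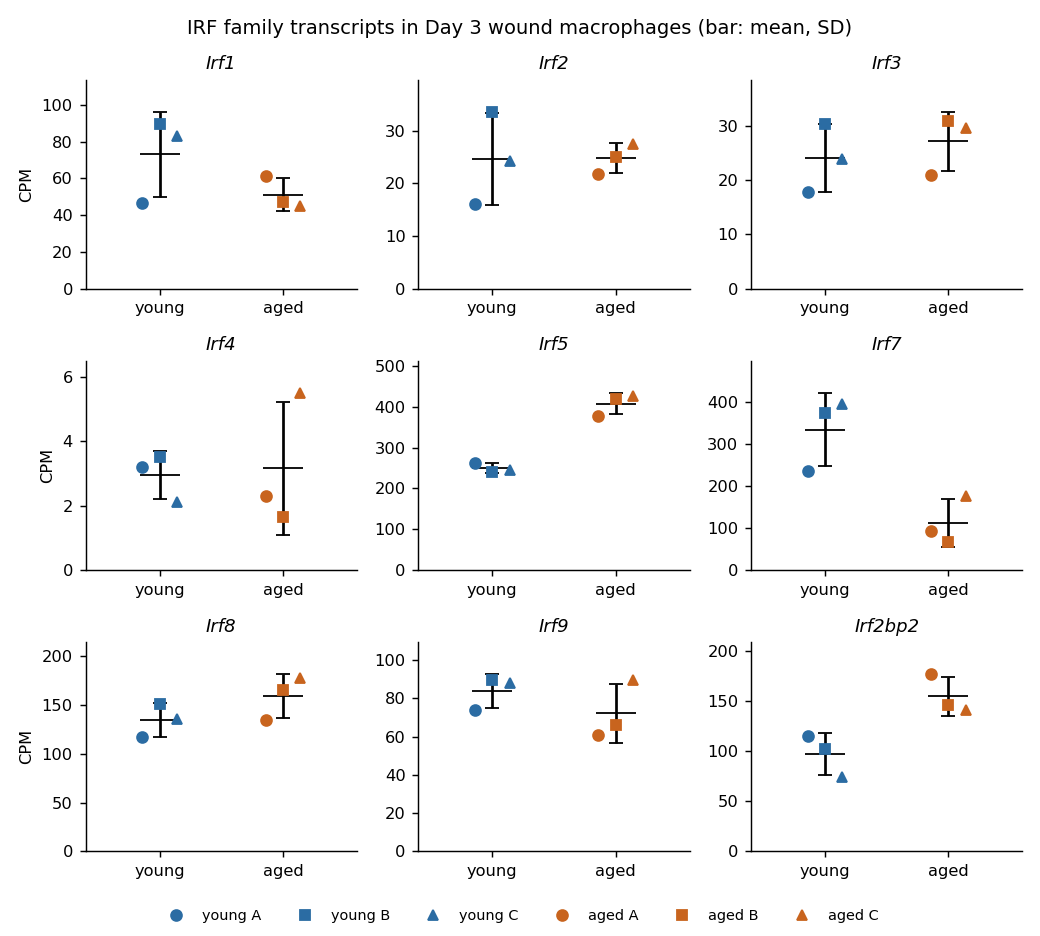
Each panel plots CPM (counts scaled to library size, linear axis from 0) of 1 member in the 3 young (blue) and 3 aged (orange) samples, with circles for set A, squares for set B, triangles for set C, and a bar with the mean and SD of the 3. Irf7 lies between 235 and 395 CPM in young and between 67.0 and 176 CPM in aged samples, and the groups are also separate for Irf5 and Irf2bp2.

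Expected counts per sample totalled between 15270103 and 17927483, and 1 count was worth 0.0553 to 0.0701 CPM. All 10 macrophage markers examined were present. Itgam passed as higher in aged samples and Adgre1, C1qa and C1qb as lower, and the summed level of the 10 lay between 32020 and 46944 CPM in young and between 22591 and 26996 CPM in aged samples. Of 12 neutrophil markers, 4 (Cd177, Cxcr2, Lcn2 and Retnlg) passed as higher, where 9.73% of all tested genes did and 7.97% passed as lower, with a summed level of 717 to 1217 CPM in young and 926 to 1582 CPM in aged samples. Ly6g lay at 6.14 to 10.9 CPM in all 6 samples. Per the study's methods, the sort did not exclude Ly6G+ cells, so a minor share of neutrophils may be present. Keratinocyte genes summed to 163 CPM in aged B and to at most 2.10 CPM in each other sample, and fibroblast genes to 119 CPM in aged B and 12.4 to 41.0 CPM elsewhere. The part of these markers in the results below was not tested, and each member is given without aged B and without every other sample in turn.

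Irf7, the interferon-induced member that amplifies type I interferon production, is at chr7:141262706-141266481 on the minus strand of mm10. It was measured at 235 CPM in young A, 375 CPM in young B and 395 CPM in young C. In aged A it was at 94.0 CPM, in aged B at 67.0 CPM and in aged C at 176 CPM. Every aged sample was below every young sample, with young A lowest among the young and aged C highest among the aged samples. The mean went from 335 ± 87.1 CPM (SD, n = 3) to 112 ± 56.6 CPM (n = 3), a log2 fold change of -1.58 with a standard error of 0.33 and a 95% interval of -2.32 to -0.84 (edgeR, adjusted p = 0.0152). These values rested on 1052 to 6393 counts per sample. Without aged B, the sample with keratinocyte RNA, the log2 fold change was -1.30 (edgeR, adjusted p = 0.0253). Irf7 missed the threshold without young B (edgeR, adjusted p = 0.0549) and without young C (adjusted p = 0.0774), at log2 fold changes of -1.48 and -1.44.

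Irf3, the constitutive partner of Irf7 in the induction of interferon beta, is at chr7:44997648-45002848. It was at 17.9, 30.3 and 23.8 CPM in young A, B and C and at 20.9, 31.0 and 29.6 CPM in aged A, B and C. The groups overlapped, and the log2 fold change of 0.18 did not pass (95% interval -0.34 to 0.69, edgeR, adjusted p = 0.620). The log2 ratio of Irf7 to Irf3 within a sample, which does not depend on how libraries are scaled, was 3.71, 3.62 and 4.04 in young and 2.16, 1.11 and 2.57 in aged A, B and C. The ratio was thus lower in all 3 aged samples, by a mean of -1.85 (exact permutation test, two-sided, n = 3 per age, p = 0.1, which is the smallest possible for 3 against 3). With each sample left out in turn the difference of means ranged from -2.15 to -1.43.

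Irf9, the DNA-binding subunit of ISGF3, is at chr14:55603571-55610030. It was at 73.9, 89.6 and 88.1 CPM in young A, B and C and at 61.1, 65.9 and 89.6 CPM in aged A, B and C. Aged A and B were below all young samples, while aged C matched young B. The log2 fold change was -0.22 (standard error 0.19, 95% interval -0.63 to 0.19, edgeR, adjusted p = 0.438), so no difference in Irf9 was detectable with these samples. Stat2, a partner of Irf9 in ISGF3, fell. With a sample left out, its call was kept only without young A. The call was also lost with no filter on low counts and with the set letter as a block. Stat2 was at 11.3, 16.7 and 15.5 CPM in young and 8.55, 8.02 and 9.57 CPM in aged samples (log2 fold change -0.73 with SE 0.22, edgeR, adjusted p = 0.0437).

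Irf5, the Toll-like receptor-activated member linked to inflammatory macrophage cytokines, is at chr6:29526625-29541871. It was at 263, 241 and 244 CPM in young A, B and C and at 378, 418 and 426 CPM in aged A, B and C. The groups did not overlap, and the samples within an age lay close together. The mean rose from 249 ± 12.3 CPM to 408 ± 26.1 CPM (SD, n = 3 each), a log2 fold change of 0.71 with a standard error of 0.16 and a 95% interval of 0.37 to 1.05 (edgeR, adjusted p = 0.0165). Irf5 passed under all 8 alternative scalings, filters, tools and blocks. It missed the threshold without young B (edgeR, adjusted p = 0.0549), young C (0.0862) or aged C (0.0705), with log2 fold changes of 0.68 to 0.76 over all 6 left-out samples.

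Irf2bp2, the co-repressor, is at chr8:126588296-126593986 on the minus strand. It was at 115, 102 and 73.9 CPM in young A, B and C and at 176, 146 and 141 CPM in aged A, B and C. Each aged sample was above each young sample. The mean rose from 97.1 ± 21.1 CPM to 154 ± 19.2 CPM (SD, n = 3 each), a log2 fold change of 0.67 with a standard error of 0.20 (95% interval 0.24 to 1.10, edgeR, adjusted p = 0.0405). This was the call nearest the threshold among the members. It passed in 1 of the 6 fits with a sample left out (without young A, edgeR, adjusted p = 0.0217; otherwise 0.0604 to 0.162) and was lost under 2 of the 8 other alternatives, with total counts (0.141) and with upper quartile scaling (0.0627).

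Irf1, the interferon gamma-induced activator of antigen presentation genes, is at chr11:53770014-53778374. It was at 46.9, 89.8 and 83.2 CPM in young A, B and C and at 61.4, 47.1 and 45.2 CPM in aged A, B and C. Young A was as low as the aged samples, whereas young B and C were above all of them. The log2 fold change was -0.52 (standard error 0.24, 95% interval -1.05 to 0.02, edgeR, adjusted p = 0.161). Irf1 passed without young A (log2 fold change -0.75, edgeR, adjusted p = 0.0193) and with limma-voom and sample quality weights (adjusted p = 0.0322). Irf2, its competitor, at chr8:46739732-46847458, was at 16.2, 33.6 and 24.3 CPM in young and 21.9, 25.0 and 27.5 CPM in aged samples. Its groups overlapped (log2 fold change 0.01, 95% interval -0.55 to 0.56, edgeR, adjusted p = 0.989). The log2 ratio of Irf1 to Irf2 was 1.53, 1.41 and 1.77 in young and 1.49, 0.91 and 0.71 in aged A, B and C, which overlapped through aged A (difference -0.53, two-sided exact permutation test, p = 0.2, n = 3 per age).

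Irf8, the lineage factor of monocytes and dendritic cells, is at chr8:120736358-120756694. It was at 117, 151 and 136 CPM in young A, B and C and at 134, 166 and 177 CPM in aged A, B and C. The groups overlapped through aged A (log2 fold change 0.24, 95% interval -0.15 to 0.63, edgeR, adjusted p = 0.359). Irf4, known for the response to IL-4 in macrophages, is at chr13:30749226-30766976 and was the scarcest member, with 26 to 89 counts per sample. It was at 3.21, 3.52 and 2.11 CPM in young and 2.31, 1.66 and 5.50 CPM in aged A, B and C, so that both its lowest and its highest sample were aged. Its log2 fold change of 0.10 had a 95% interval of -0.90 to 1.10 (edgeR, adjusted p = 0.899), which holds a 2-fold rise. Irf4 is also a gene of B cells and dendritic cells. The B cell genes Cd79a and Ms4a1 were at no more than 0.57 CPM in any sample, while Cd79b fell from 4.43 to 12.8 CPM in young to 1.85 to 3.46 CPM in aged samples. Genes of conventional dendritic cells summed to 22.7 to 61.2 CPM in young and 36.0 to 100.5 CPM in aged samples, and their part in Irf4 and Irf8 was not tested. The log2 ratios of Irf5 to Irf4 (difference 0.76, p = 0.3) and of Irf8 to Irf4 (difference 0.29, p = 0.7) overlapped between the ages in the two-sided exact permutation test, and these 4 ratios of members were the only ones tested.

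**Figure D2:**
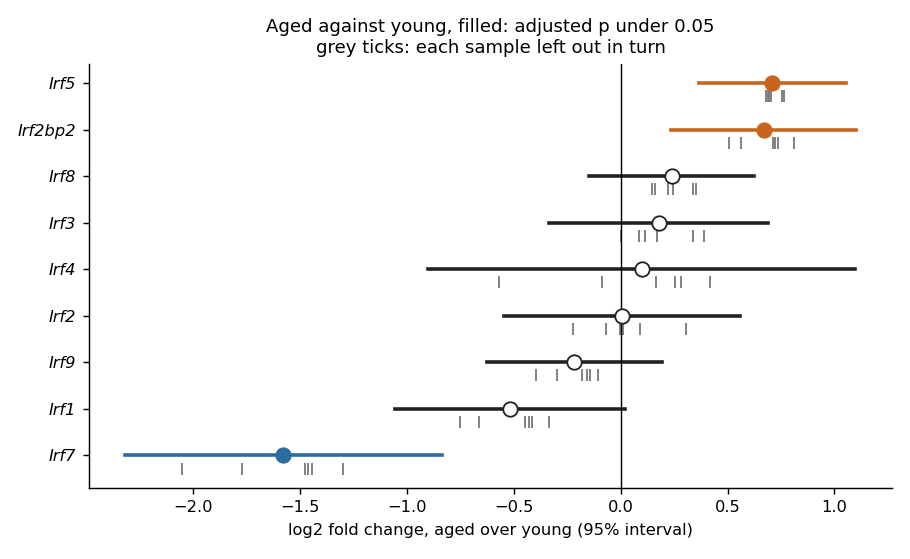
The log2 fold change of each member (aged over young) is plotted on the horizontal axis with its 95% interval, filled where it passed at an adjusted p-value under 0.05, and grey ticks show the value with each of the 6 samples left out. Irf5, Irf2bp2 and Irf7 have intervals clear of 0, and the ticks of Irf2 and Irf4 fall on both sides of it.

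To compare levels between members, CPM was divided by the length of all annotated exons of a gene (GENCODE M21, an earlier release on the same mm10 build). In young samples the order of level per kb was Irf7 (140.1 ± 36.4 CPM per kb), Irf5 (94.2 ± 4.63), Irf8 (39.2 ± 5.01), Irf9 (27.0 ± 2.80), Irf1 (22.0 ± 6.91), Irf2bp2 (19.1 ± 4.15), Irf3 (11.0 ± 2.85), Irf2 (9.89 ± 3.50) and Irf4 (0.62 ± 0.16), each as mean ± SD of 3 samples. The ranges of Irf7 and Irf5 overlapped, as did Irf9 with Irf1, Irf1 with Irf2bp2, and Irf3 with Irf2. Within every young sample, however, Irf9 stood above Irf1 and Irf3 above Irf2. In aged samples the order was Irf5 (154 ± 9.85 CPM per kb), Irf7 (46.9 ± 23.7), Irf8 (46.3 ± 6.49), Irf2bp2 (30.4 ± 3.77), Irf9 (23.3 ± 4.93), Irf1 (15.4 ± 2.66), Irf3 (12.4 ± 2.50), Irf2 (9.93 ± 1.13) and Irf4 (0.66 ± 0.43). There, the ranges of Irf7 overlapped with Irf8, Irf2bp2 and Irf9, Irf2bp2 with Irf9, Irf1 with Irf3 and Irf3 with Irf2. Within every aged sample Irf5 stood above Irf7 and Irf3 above Irf2. The summed CPM of the 9 members was 889, 1116 and 1070.5 in young and 949.9, 967 and 1118 in aged A, B and C, and these ranges overlapped. Irf7 held 26.5% to 36.9% of this sum in young and 6.93% to 15.7% in aged samples, and Irf5 held 21.6% to 29.6% in young and 38.1% to 43.3% in aged samples. The log2 ratio of Irf5 to Irf7, chosen after its values were seen and given without a test, was 0.16, -0.64 and -0.70 in young and 2.01, 2.64 and 1.28 in aged A, B and C.

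**Figure D3:**
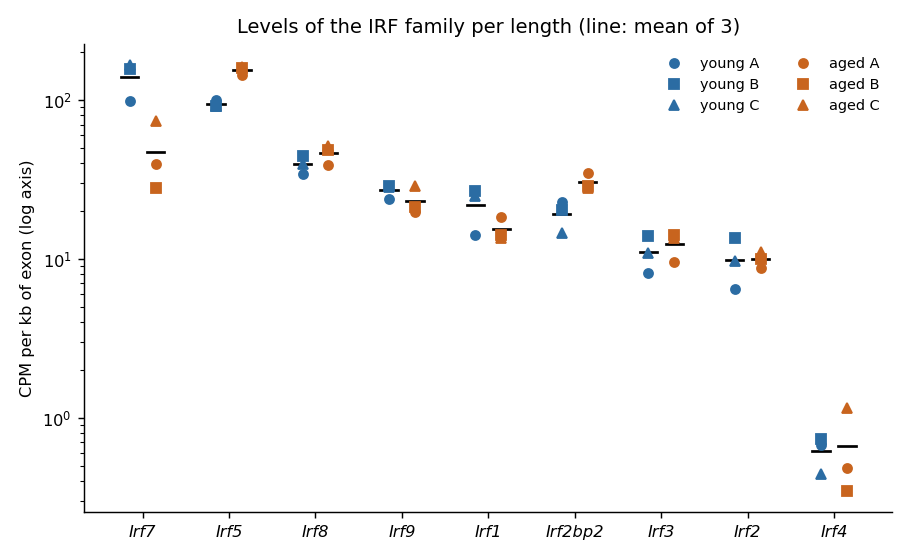
CPM per kb of exon (log axis) of each member in the young (blue) and aged (orange) samples, with circles, squares and triangles for sets A, B and C and a line at the mean of 3. Irf5 and Irf7 are highest in young samples, Irf5 stands alone at 143 to 161 CPM per kb in aged samples, and Irf4 is lowest in both ages.

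Several members overlap other genes of the table, and whether reads were counted by strand was not given in the sources used here. Irf7 shares 45 bases with Phrf1 on the opposite strand, none of them exonic in both. Irf5 and Tnpo3, on opposite strands, share 251 exonic bases, and Tnpo3 did not pass (log2 fold change 0.21, edgeR, adjusted p = 0.394). The span of Galnt2l on the same strand holds all of Irf8, and Galnt2l did not pass (log2 fold change 0.56, edgeR, adjusted p = 0.0844). Irf9 shares 123 exonic bases with Rnf31. On the opposite strand, Irf1 shares 3145 bases with Gm17334, 100 of them exonic in both, and Irf3 shares 1065 bases with Bcl2l12, none exonic in both. Reads of shared stretches cannot be told apart between genes on the same strand, nor between opposite strands if counting ignored strand. Irf2, Irf4 and Irf2bp2 overlap no other gene of the table.

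Promoters were read because several members are themselves interferon targets. The windows were the 250 bases before each RefSeq start (GRCm38.p6, matched by symbol for all 9 members), and they were searched for the ISRE-like letters GAAA-NN-GAAA and the letters TTCNNNGAA of a gamma-activated site (GAS), an element of interferon gamma-responsive promoters, on both strands. An ISRE-like match was in the windows of 1 of 9 members, against 3.58% of the tested genes with a window, and a GAS-like match in 3 of 9, against 7.19%. The matches of Irf1, Irf2 and Irf8 are shown because these are the members whose windows hold the letters. The motif is in capitals, 5′ to 3′ on the strand of the gene. Both matches of Irf8 lie within 171 bases of its start and the GAS-like letters of Irf1 lie 90 bases from its start.
Irf1 GAS-like, chr11:53769909-53769947, plus strand: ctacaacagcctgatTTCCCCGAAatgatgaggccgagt
Irf2 ISRE-like, chr8:46739495-46739528, plus strand: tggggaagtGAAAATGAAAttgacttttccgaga
Irf2 GAS-like, chr8:46739506-46739544, plus strand: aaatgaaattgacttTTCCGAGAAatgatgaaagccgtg
Irf8 GAS-like, chr8:120736172-120736210, plus strand: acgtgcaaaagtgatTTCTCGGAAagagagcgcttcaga
Irf8 GAS-like, chr8:120736190-120736228, plus strand: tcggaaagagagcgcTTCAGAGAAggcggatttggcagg

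These letters were not in the windows of Irf3, Irf4, Irf5, Irf7, Irf9 or Irf2bp2, which says nothing of sites elsewhere or of other spellings. The windows of Irf9 begin at chr14:55603735 and chr14:55604329, inside the gene as placed above. The bases before its annotated start at chr14:55603571 were thus not searched. Among the 3 members that passed, the promoter of Irf7 was poorer in CpG pairs than those of Irf5 and Irf2bp2. The 250 bases before the start held 3 CpG pairs and 54.4% G and C in Irf7, 25 CpG pairs and 72.0% in Irf5, and 32 CpG pairs and 71.6% in Irf2bp2, where the median window of tested genes held 16 CpG pairs and 59.6% G and C. The 100 bases before the annotated gene start are shown for these 3 with CpG pairs in capitals.
Irf7, chr7:141266482-141266581, minus strand: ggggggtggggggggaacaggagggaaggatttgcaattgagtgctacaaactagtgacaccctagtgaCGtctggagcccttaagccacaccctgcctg
Irf5, chr6:29526525-29526624, plus strand: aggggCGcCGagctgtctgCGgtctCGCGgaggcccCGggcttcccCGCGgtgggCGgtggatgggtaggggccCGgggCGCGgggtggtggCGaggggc
Irf2bp2, chr8:126593987-126594086, minus strand: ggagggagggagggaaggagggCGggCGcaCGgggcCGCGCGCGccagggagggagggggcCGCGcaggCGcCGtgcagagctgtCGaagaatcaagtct

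Of 18 tested adaptors, kinases and ubiquitin ligases that activate IRF proteins, 2 rose, a share near the 9.73% of all tested genes, with a list median log2 fold change of 0.25 beside -0.02 over all tested genes. In 7 of the 18 every aged sample lay above every young one and in 1 below (19.2% and 19.0% of all tested genes). Ticam1, which encodes the adaptor TRIF, was at 14.9, 4.87 and 8.72 CPM in young and 18.1, 31.8 and 28.9 CPM in aged samples (log2 fold change 1.47 with SE 0.36, edgeR, adjusted p = 0.0243). Traf6, a ubiquitin ligase behind MyD88, went from 24.9 ± 3.13 to 45.3 ± 7.04 CPM (SD, n = 3; log2 fold change 0.86, edgeR, adjusted p = 0.0149). The groups did not overlap in either. Of the kinases that phosphorylate Irf3 and Irf7, Tbk1 had a log2 fold change of 0.51 (edgeR, adjusted p = 0.0749) with separate groups, and Ikbke of 0.17 (0.744) with overlapping ones. Slc15a4, a lysosomal transporter needed for Irf5 activation, was at 56.7 ± 10.9 and 57.1 ± 16.9 CPM (SD, n = 3 each). The count of 2 was 4 without young A and with limma-voom, and neither Ticam1 nor Traf6 kept its call without young B, young C or aged C.

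Of 8 interferon receptor and JAK-STAT genes examined, 3 rose and 1, Stat2, fell, against 9.73% and 7.97% of all tested genes, at a median log2 fold change of 0.30 beside -0.02 over all tested genes. The receptor chains Ifnar1 and Ifngr2 rose by log2 fold changes of 0.64 and 0.83 (edgeR, adjusted p = 0.0267 and 0.0208), while Ifnar2 and Ifngr1 had log2 fold changes of 0.11 each (adjusted p = 0.670 and 0.734). Jak2, the kinase of the interferon gamma receptor, was at 23.6, 17.1 and 22.6 CPM in young and 65.5, 53.1 and 69.1 CPM in aged samples, the largest rise of this list (log2 fold change 1.57 with SE 0.19, edgeR, adjusted p = 0.00195). Jak1 and Tyk2 did not pass (log2 fold change 0.40 and 0.20, edgeR, adjusted p = 0.0907 and 0.542). The genes that rose were thus 2 receptor chains and a kinase. The number that rose was 1 without young B, young C or aged C. Among the left-out samples, Stat2 kept its call without young A alone. Stat2 also lost its call with no filter on low counts and with the set letter as a block.

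Most of the tested targets of ISGF3, Irf3 and Irf7 fell. Of 42 tested ISRE-driven genes, 27 fell, 40 had a log2 fold change below 0 and 29 had every aged sample below every young sample. The list's median log2 fold change was -1.01, beside -0.02 over all tested genes, where 7.97% fell and 19.0% were separated in that direction. With all samples, none of the 42 passed as higher in edgeR or DESeq2, while 1 did with limma-voom and in edgeR without aged A, and 1 was higher at an unadjusted p-value under 0.05 by each tool with all samples. The largest falls of abundant genes were in Ifit3, Ifit2 and Xaf1. Ifit3, which encodes an antiviral RNA-binding protein, was at 51.8, 96.4 and 76.4 CPM in young and 6.94, 12.6 and 24.2 CPM in aged samples (log2 fold change -2.36 with SE 0.39, edgeR, adjusted p = 0.00709), and its near copy Ifit3b may share reads with it. Ifit2, its neighbour in the genome, went from 37.5 ± 11.1 to 10.7 ± 5.66 CPM (SD, n = 3; log2 fold change -1.80, edgeR, adjusted p = 0.0122), and Xaf1 from 67.0 ± 19.3 to 21.9 ± 10.1 CPM (log2 fold change -1.61, adjusted p = 0.0122). Young A was the lowest young sample and aged C the highest aged sample in all 3, the same samples as for Irf7. The number that fell was 26 to 33 under the 8 other scalings, filters, tools and blocks. It was 9 without young B, 5 without young C, 17 without aged A and 13 without aged B. Over all tested genes, the number that fell went from 947 with all samples to 330 of 12169, 67 of 12219, 522 of 12248 and 608 of 12215 in those same fits.

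**Figure D4:**
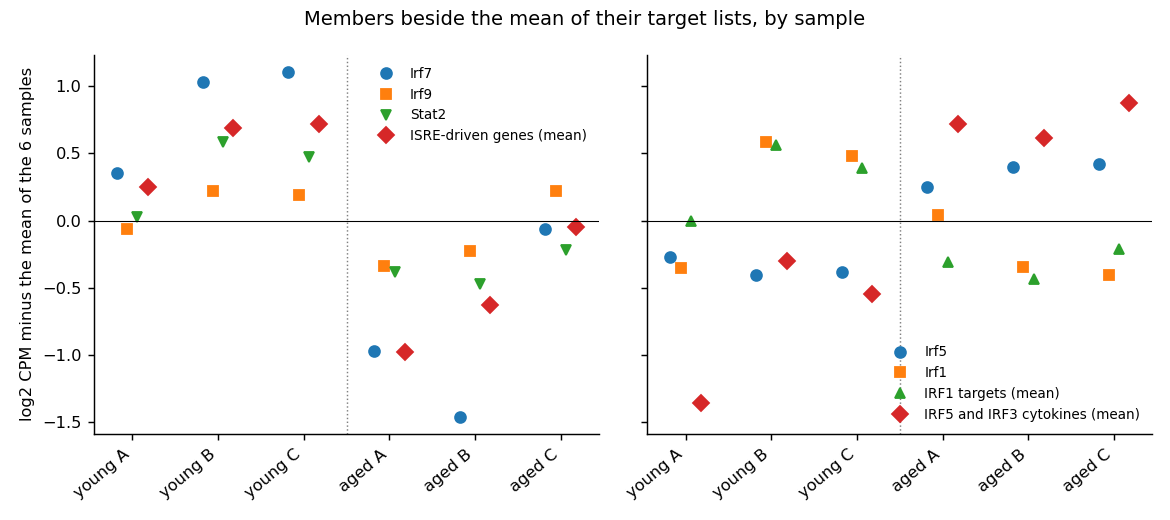
The vertical axis is log2 CPM minus its mean over the 6 samples, for Irf7, Irf9, Stat2 and the mean of the ISRE-driven genes (left) and for Irf5, Irf1, the mean of IRF1 targets and the mean of cytokine genes bound by Irf5 and Irf3 (right), in each sample. The ISRE-driven genes, Irf7 and Stat2 are above 0 in each young sample and below 0 in each aged sample, with aged C nearest to 0 among the aged samples for the list mean, and Irf9 is not so divided.

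ISRE-like letters were in the windows of 14 of the 31 ISRE-driven genes with a window (45.2%) and of 11 of 19 IRF1 targets (57.9%), against 3.58% of tested genes. Both lists were assembled as genes known to respond to interferon, so this is a description of the lists. The sites of Ifit3, Igtp and Tgtp2, which fell, and of Socs1, which rose, are shown because the same letters stood before genes that moved in opposite directions. Socs1 has a further, overlapping match 83 bases from its start, and the one 77 bases from its start is marked. The windows differ in other letters. Those of Tgtp2 and Igtp also hold a GAS-like match, 81 and 45 bases from the start, and those of Ifit3 and Socs1 hold none. Ifit2, which fell, has a GAS-like match 241 bases from its start and no ISRE-like one. Whether these letters go with direction was not tested.
Ifit3 ISRE-like, chr19:34583358-34583397, plus strand: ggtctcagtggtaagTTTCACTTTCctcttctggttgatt
Ifit3 ISRE-like, chr19:34583392-34583431, plus strand: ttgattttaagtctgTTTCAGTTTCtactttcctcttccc
Tgtp2 ISRE-like, chr11:49064258-49064297, minus strand: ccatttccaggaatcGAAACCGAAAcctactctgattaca
Igtp ISRE-like, chr11:58199507-58199546, plus strand: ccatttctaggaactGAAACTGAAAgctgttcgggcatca
Socs1 ISRE-like, chr16:10785589-10785628, minus strand: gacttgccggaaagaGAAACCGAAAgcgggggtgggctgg

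Of 26 tested IRF1 targets of the interferon gamma response, 10 fell and 3 rose, against 7.97% and 9.73% of all tested genes. In 22 of them the log2 fold change was below 0, in 15 every aged sample lay below every young one and in 3 above (19.0% and 19.2% of all tested genes), and their median log2 fold change was -0.65. The largest falls among abundant genes were in the GTPase genes Tgtp2 and Igtp and in the immunoproteasome gene Psmb9. Tgtp2 was at 8.24, 22.9 and 27.3 CPM in young and 1.05, 3.06 and 4.82 CPM in aged samples (log2 fold change -2.70 with SE 0.53, edgeR, adjusted p = 0.0119), and it has a near copy, Tgtp1, with which it may share reads. Igtp went from 35.0 ± 10.0 to 13.4 ± 7.89 CPM and Psmb9 from 81.0 ± 23.7 to 37.5 ± 9.16 CPM (SD, n = 3; log2 fold change -1.39 and -1.11, edgeR, adjusted p = 0.0331 and 0.0197). The genes that rose were Socs1, a feedback inhibitor of cytokine signalling, Nos2, the inducible nitric oxide synthase, and Cd274, the gene of PD-L1. Socs1 was at 60.0, 20.5 and 26.5 CPM in young and 142, 81.8 and 112 CPM in aged samples (log2 fold change 1.65, edgeR, adjusted p = 0.0172), Nos2 went from 21.5 ± 9.99 to 54.3 ± 11.3 CPM (1.33, 0.0186) and Cd274 from 57.1 ± 8.52 to 134 ± 44.8 CPM (1.23, 0.0122). These 3 are also induced through NF-κB or other STATs, as background. The number that fell was 2 without young B, 0 without young C, 6 without aged A, 5 without aged B, 3 without aged C and 6 with no filter on low counts. The number that rose was 0 without young C and 1 without aged C. Calls over all tested genes were fewer in these fits too, with 194 lower and 351 higher of 12245 without aged C and 151 higher without young C, beside 947 and 1156 with all samples.

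Most of the tested cytokine genes known to be bound by Irf5 and Irf3 rose. Of 10 tested genes, 8 rose, all 8 with separate groups, and the median log2 fold change was 1.62. Over all tested genes 9.73% rose and 19.2% were separated in that direction. Il1a, the gene of interleukin 1 alpha, was at 90.3, 294 and 238 CPM in young and 1219, 931 and 1427 CPM in aged samples (log2 fold change 2.52 with SE 0.38, edgeR, adjusted p = 0.00436). Il23a, the gene of the p19 chain of IL-23, was at 1.38, 9.03 and 3.04 CPM in young and 26.7, 16.4 and 19.5 CPM in aged samples (log2 fold change 2.21 with SE 0.52, edgeR, adjusted p = 0.0208). Ccl3, a chemokine gene, rose from 301 ± 48.3 to 1332 ± 227 CPM (SD, n = 3; log2 fold change 2.15, edgeR, adjusted p = 0.00127). Young A was the lowest young sample for Il1a and Il23a, and lay beside young C for Ccl3. The tested genes Ccl5 and Il10 did not pass and lay below 0 (log2 fold change -0.75 and -0.03, edgeR, adjusted p = 0.224 and 0.955). Ifnb1 and Il12b, also on this list, were too low to test. Ifnb1, the interferon beta gene that Irf3 and Irf7 drive, had 10, 1 and 4 counts in young and 0, 3 and 4 counts in aged samples, so that no difference was detectable at this depth. The number that rose was 3 without young C and 4 without aged C. As background, these genes also respond to NF-κB.

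Of 11 tested genes of Irf4 and the IL-4 response, 3 rose, where 9.73% of all tested genes did, and the list median was 0.52. Kdm6b, the gene of a histone demethylase that acts upstream of Irf4, went from 10.3 ± 1.84 to 20.6 ± 3.34 CPM (SD, n = 3; log2 fold change 1.003, edgeR, adjusted p = 0.0158). Il4ra, the IL-4 receptor gene, went from 202 ± 48.0 to 343 ± 25.7 CPM and Stat6, which carries its signal, from 71.4 ± 4.70 to 102 ± 3.20 CPM (log2 fold change 0.76 and 0.52, edgeR, adjusted p = 0.0272 and 0.0374). The number that rose was 6 with DESeq2, 1 with total counts only, 2 without young A and 0 without young B, young C or aged C. Of 11 tested DNA-binding partners of Irf4 and Irf8, 1 rose, a share near the 9.73% of all tested genes, at a list median of -0.14. It was Etv6, an ETS-family repressor that binds with Irf8, at 43.9, 32.6 and 34.3 CPM in young and 66.4, 75.2 and 77.6 CPM in aged samples (log2 fold change 0.98, edgeR, adjusted p = 0.00820), and it lost its call without young C. Spi1, the gene of PU.1, was at 521 ± 27.7 and 578 ± 67.9 CPM (SD, n = 3 each; edgeR, adjusted p = 0.555). The AP-1 genes Batf and Batf3, partners of Irf4 and Irf8 in lymphocytes and dendritic cells, had log2 fold changes of -0.18 and -0.94 (edgeR, adjusted p = 0.754 and 0.191).

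Among 7 tested genes around Irf2bp2, 1 rose, which was Irf2bp2 itself, and 1 fell, counts near the 9.73% and 7.97% of all tested genes. The gene that fell was Nfatc2, whose product Irf2bp2 is known to repress. Nfatc2 was at 3.10, 5.10 and 4.10 CPM in young and 1.19, 1.97 and 1.67 CPM in aged samples (log2 fold change -1.34 with SE 0.35, edgeR, adjusted p = 0.0292), and lost its call without young B, young C, aged A or aged C. Irf2bpl, a relative of Irf2bp2, was at 25.1, 17.8 and 21.3 CPM in young and 44.8, 27.8 and 30.6 CPM in aged samples. It had separate groups but missed the threshold (log2 fold change 0.68, edgeR, adjusted p = 0.0553). Klf2, an anti-inflammatory factor linked to Irf2bp2 in macrophages, had a log2 fold change of 0.61 (adjusted p = 0.0703), Irf2bp1 of 0.36 (0.295), Vgll4 of 0.10 (0.748) and Nfatc1 of -0.41 (0.380). The list's median was 0.36, and the number that rose was 3 with DESeq2 and with limma-voom, 2 without young A or aged B, and 0 without young B, young C, aged A or aged C, with total counts only or with upper quartile scaling. Irf2bp2 itself lost its call in those settings with a count of 0 and also without aged B.

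**Figure D5:**
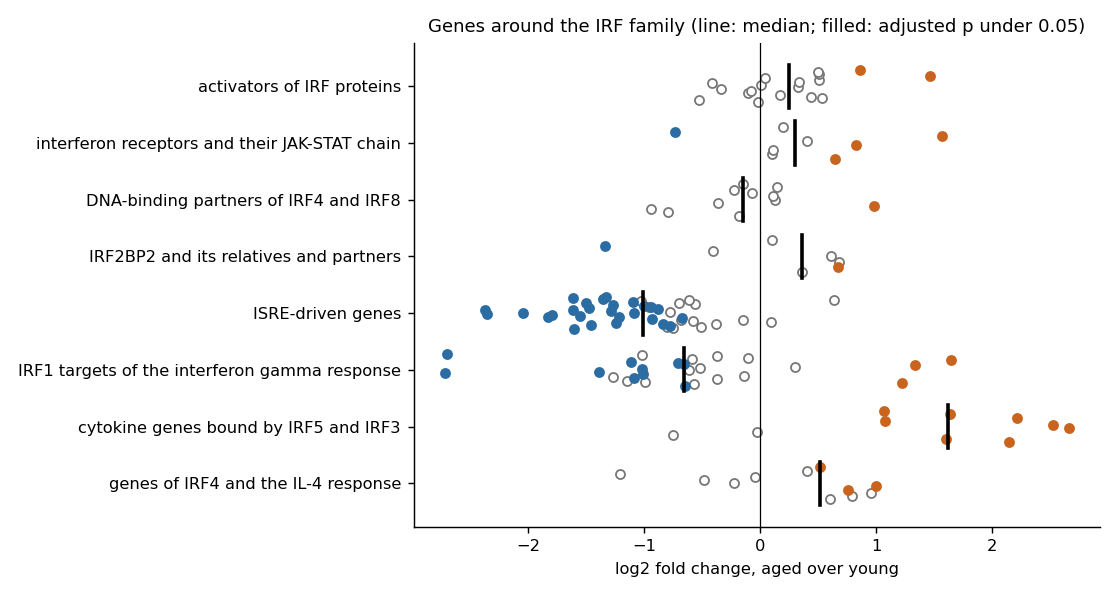
Each point is the log2 fold change (aged over young, horizontal axis) of 1 tested gene of 8 lists around the IRF family, filled orange or blue where it passed as higher or lower at an adjusted p-value under 0.05, with a line at each list's median. The ISRE-driven genes lie mostly left of 0 (median -1.01) and the cytokine genes mostly right of it (median 1.62).

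Of 6580 tested genes with a mean of at least 10 CPM that are no members, those most like Irf7 over the 6 samples by Pearson's r of log2 CPM were Zbp1, a sensor of Z-form nucleic acids (0.999), Clcc1 (0.998) and Cfb, complement factor B (0.994). Zbp1 is also one of the 42 ISRE-driven genes and fell itself, with a log2 fold change of -1.33 (edgeR, adjusted p = 0.0151). Those most like Irf5 were Dcaf10 (0.998), Cstf3 (0.998) and Tlr4, the lipopolysaccharide receptor gene (0.997). Those most like Irf2bp2 were Tfe3, a lysosomal transcription factor gene (0.999), Siah1a (0.994) and Spsb1 (0.992). These are the highest of many correlations over 6 samples in 2 age groups, which share their libraries and their age difference, and they are given as a description.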

How the data were processed

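RNA of 3 young and 3 aged samples was reverse-transcribed and amplified with the SMART-Seq v4 kit. The authors aligned reads with STAR 2.7.3a to mm10 with quantification in Partek Flow against Ensembl 102, and deposited expected counts per gene without normalisation; a further table of their scaled values and own DESeq2 comparison was not used. In each sample some of the expected counts were not whole, and all were rounded. Among the members, Irf5 lay furthest from a whole count, by up to 0.5. Genes were filtered with filterByExpr, scaled by TMM and fitted with edgeR 4.0.16 (R 4.3.3) by age without a covariate, with p-values adjusted over 11878 genes. Alternatives were DESeq2 1.42.0, limma 3.58.1, other scalings and filters, the set letter as a block and each sample left out. The fit was tested on simulated data. Replicates differed by more than sampling noise, and sample A stood furthest from the others in both ages. The chi-square per gene was 118 for young A and B, 123 for young A and C and 32.5 for young B and C. In aged samples it was 123 for A and B, 96.8 for A and C and 46.3 for B and C. What set A has apart from the other sets was not tested. In each sample 1 count was worth at least 0.0553 CPM, which limits the precision of low genes.

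The members and lists were chosen with earlier results of these data known. The text names all members, every tested gene of lists of up to 9 genes, and of longer lists the 3 largest rises and falls among genes that passed with a mean of at least 10 CPM; Spi1, Batf, Batf3, Tbk1, Ikbke and Slc15a4 whatever their value; and the 3 genes most like each member that passed. The other named genes were named outside this rule. They were Ifnb1, Il12b, Ccl5, Il10, Ifit3b, Tgtp1, Phrf1, Tnpo3, Galnt2l, Rnf31, Gm17334, Bcl2l12 and the cell type markers. Motifs were searched in RefSeq windows (GRCm38.p6), and gene ends are 1 base below the deposited stop, as GENCODE M21 gives them. Some genes of the lists are not reported here and were left out of the list counts.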

Additional observations from a re-analysis of the deposited data

How the results depend on the processing

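With total counts in place of TMM the median log2 fold change of all tested genes moved from -0.02 to -0.20, and 1 member was higher; with upper quartile scaling (median -0.09) it was also 1, since Irf2bp2 was lost in both. With limma-voom 2 members were lower, Irf1 being the second. Under the other 5 alternatives with all samples, 2 members were higher and 1 lower, and Irf5 and Irf7 passed under all 8. With each sample left out, 0 to 2 members were higher and 0 to 2 lower. No member passed without young B or without young C in edgeR, where 2 were higher and 1 lower at an unadjusted p-value under 0.05, and over all genes 435 rose and 330 fell without young B, 151 and 67 without young C, and 1156 and 947 with all samples. Irf3, Irf8 and Irf9 kept their direction and stayed short of the threshold in all 14 alternatives.

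Irf2 changed sign with total counts (-0.17), upper quartile scaling (-0.071) and at least 10 counts in every sample (-0.0055), and ranged from -0.22 to 0.30 with samples left out. Irf4 changed sign with total counts (-0.11) and ranged from -0.57 to 0.42 with samples left out. The deviations of same-lettered samples correlated at 0.18, -0.02 and 0.11 for sets A, B and C, so the letters were not taken to pair the samples. With the set letter as a replicate block 2 members were higher and 1 lower, and Irf4 had a log2 fold change of -0.051, while Stat2 lost its call.

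With 3 samples per age, simulated 2-fold changes were recovered for 43 of 100 genes and 4-fold changes for 92 of 100 in edgeR. The simulation changed 100 genes at each fold among 11878, whereas 1156 genes rose and 947 fell in the data. Adjusted p-values depend on how many genes change, so these shares are not the recovery rate of the comparison by age. A member that did not pass is not thereby shown to be unchanged.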
